A study of Mus musculus with 16 samples.

Results

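The immature neuron genes are Sox11, Sox4, Nhlh2, Dcx, Stmn1, Dpysl3, Dpysl5, Igf2bp1, Igf2bp2 and Igf2bp3. These 10 genes are known for high activity in young neurons or in fetal tissue. They were taken as the probe sets that the array's annotation pairs with 1 of these symbols and no other gene, 169 of 625534 probe sets. The annotation names 21634 genes in all. The series measured total RNA on 16 Affymetrix mouse exon arrays, which carry several probe sets along each transcript. Its samples were whole brains and spinal cords of CD1 mouse embryos, an outbred stock, at age E18.5, late in gestation. There were 4 spinal cords of Nova1/2 double knockout (dKO) embryos, 4 wild type (WT) spinal cords, 4 dKO brains and 4 WT brains, each on an array of its own. The labels do not give which exons the Nova alleles delete, nor which brain and which spinal cord came from 1 embryo.

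Nova1 and Nova2 are RNA-binding proteins of neurons that control alternative splicing. A newborn neuron leaves the cell cycle, migrates and sends out an axon before it matures, and most of the genes described here are known from that stage. Sox11, Sox4 and Nhlh2 are transcription factors of committed and young neurons. Dcx, Stmn1, Dpysl3 and Dpysl5 act on the cytoskeleton of migrating cells and growth cones. The 3 Igf2bp genes encode RNA-binding proteins that are abundant in the fetus and scarce in most adult tissues.

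The level of a gene is the median of log2(intensity + 16) over its probe sets above a floor, and 14570 genes had enough such probe sets to be tested. All 10 immature neuron genes were tested, on 138 of their 169 probe sets. A gene is called where its adjusted p from limma, over all genes tested, was under 0.05. Levels are not compared between genes, because each gene has its own probes. A change in tissue RNA can come from another number of cells of a type or from another amount of RNA per cell, and these cannot be told apart here.

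The targeted genes followed the labels. Nova1 lay between 6.28 and 6.54 in dKO spinal cords, against 11.52 to 11.94 in WT spinal cords, and between 4.64 and 5.51 in dKO brains, against 9.996 to 10.72 in WT brains. Nova2 was lower in dKO by less, at 7.17 to 7.41 in dKO spinal cords, against 8.23 to 8.63 in WT spinal cords, and at 7.77 to 8.03 in dKO brains, against 8.45 to 8.79 in WT brains. The groups of neither gene overlapped. Some arrays stood apart. The mean log2 level of 13 skeletal muscle genes was 9.51 and 8.97 in dKO spinal cords 2 and 4 and 10.003 and 9.36 in WT spinal cords 1 and 4, while the other 4 spinal cords lay between 7.47 and 7.81. The mean of 8 meninges genes was 9.44 and 9.43 in the same dKO spinal cords 2 and 4, against 8.27 to 8.87 in the other 6 spinal cords. The mean of 7 telencephalon genes was 8.11 in dKO brain 3 and 7.31 in WT brain 3, with the other 6 brains between 9.57 and 9.79. It ranged from 7.32 to 7.44 in dKO spinal cords and from 7.16 to 7.52 in WT spinal cords. WT brain 3 thus lay at the level of spinal cord in these genes, and dKO brain 3 lay above it. Both arrays were kept in the main brain and tissue comparisons. Y-linked genes were high in dKO spinal cord 4, WT spinal cords 2 and 3 and WT brains 1 and 4, and low on the other arrays. All 7 telencephalon genes were lower in spinal cord than in brain in both genotypes, as the tissue labels say.

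Sox11, Dcx and Stmn1 rose in dKO spinal cord, by 1.80-fold, 1.49-fold and 1.29-fold, and no immature neuron gene fell there. These 3 of 10 are set beside 5.63% of all genes tested that were called in spinal cord, 1.08% higher and 4.55% lower. The 10 genes were chosen with earlier results of these data known, so this is no independent comparison. Of the 10 genes, 9 had a positive change, with a median of 0.21 on the log2 scale, where the median of all genes was -0.03. The dKO and WT spinal cords did not overlap in level for 4 of the 10 genes, against 11.5% of all genes tested. Without the 4 spinal cords of high muscle level, 100 genes were called in all and none of the immature neuron genes. The changes without them were 0.90 for Sox11 (adjusted p = 0.118), 0.58 for Dcx (adjusted p = 0.0726) and 0.51 for Stmn1 (adjusted p = 0.15), each at least as large as with them.

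In brain none of the 10 genes was called, against 0.268% of all genes tested, and 1 of them, Nhlh2, had an unadjusted p under 0.05. Again 9 of 10 changes were positive, but their median was 0.12, beside 0.02 over all genes, of which 57.6% were positive. No gene of the 10 had dKO and WT brains that did not overlap, which 4% of all genes had. Same-numbered brains deviated together, but differently numbered brains were not compared, and array 3 stood apart in both groups. The labels do not give these arrays as pairs, so setting them side by side is description only. Sox11, Sox4, Stmn1 and Dpysl5 were higher in dKO in all 4 pairs, against 11.4% of all genes tested, and the other 6 genes were not. With the array number as a block none of the 10 was called in brain, with an adjusted p of 0.421 (Nhlh2) to 0.98 (Igf2bp3). The difference between the dKO effects, spinal cord minus brain, was called for none of the 10 and for 0% of all genes, with 1166 genes at an unadjusted p under 0.05. Sox11 and Dcx were among these. So the larger changes in spinal cord were not shown to differ from those in brain once all genes were accounted for.

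**Figure D1:**
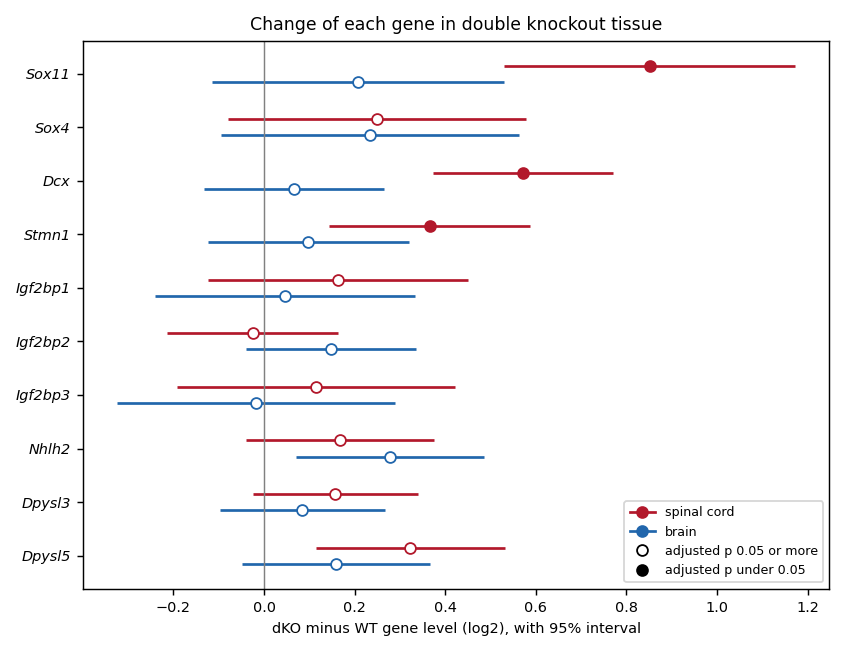
Change of each immature neuron gene, dKO minus WT gene level on the log2 scale, in spinal cord (red) and brain (blue), with 95% intervals from limma. Points are filled where the adjusted p over all genes was under 0.05, which holds for Sox11, Dcx and Stmn1 in spinal cord only. The 2 intervals of Sox11 only just meet, and those of Dcx do not.

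Between WT spinal cord and WT brain all 10 genes were called, 9 of them lower in spinal cord, against 60.4% of all genes called, 39.8% lower and 20.6% higher. Igf2bp2 was the 1 gene higher in WT spinal cord. Between dKO spinal cord and dKO brain 8 of the 10 genes were called, all lower in spinal cord, against 66.4% of all genes called, 47.8% lower and 18.6% higher. The tissue groups did not overlap for 6 of the 10 genes in dKO and for 9 in WT, against 63.2% and 40.9% of all genes. The median of the 10 changes was -0.49 in dKO tissue and -0.66 in WT tissue, beside -0.24 and -0.16 over all genes. All of these counts include Igf2bp1, though some of its probe sets passed the floor through brain, which set their direction. These tissue comparisons use the same arrays as the genotype comparisons, so they are no second test of a dKO effect. By their means, 8 genes had the same order of groups, with dKO brain highest, then WT brain, dKO spinal cord and WT spinal cord. In Igf2bp3 the brains changed places, and in Igf2bp2 WT spinal cord was highest, then dKO spinal cord, dKO brain and WT brain.

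**Figure D2:**
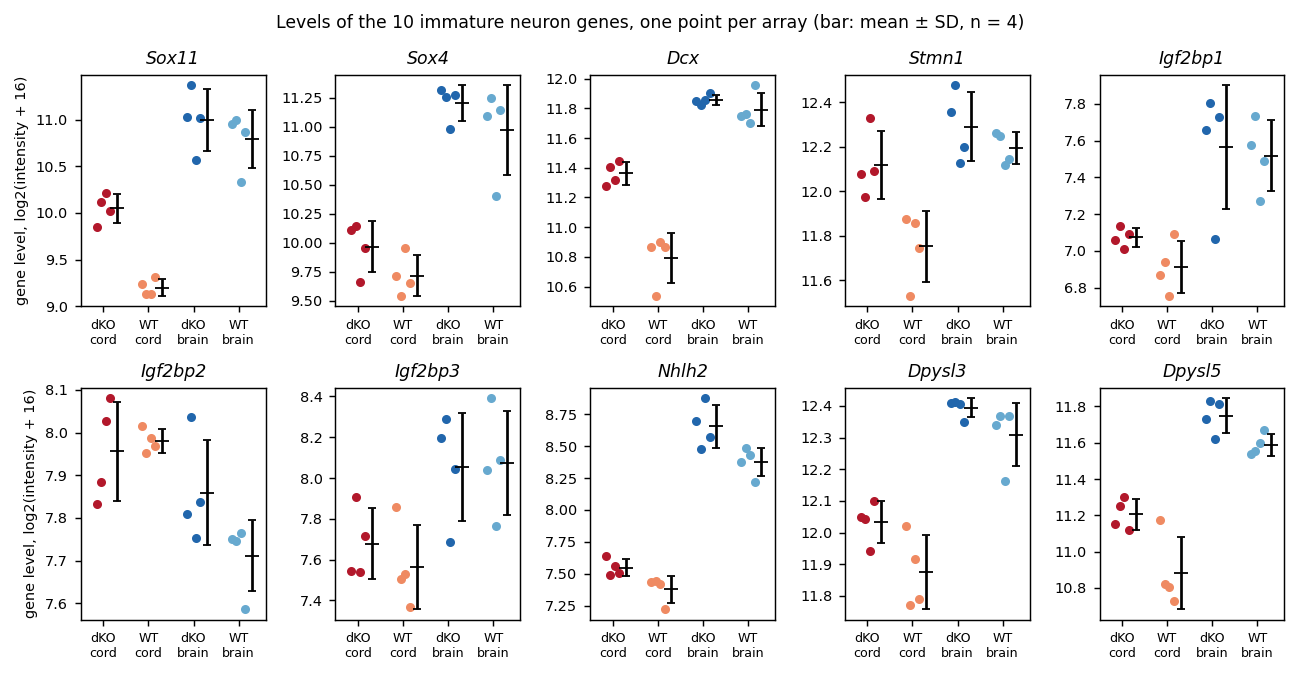
Gene level, log2(intensity + 16), of the 10 immature neuron genes in every array, with the mean and SD of each group of 4 (bars). Each panel has its own axis, and the groups run dKO spinal cord, WT spinal cord, dKO brain and WT brain. The dKO spinal cords of Sox11, Dcx, Stmn1 and Nhlh2 lie above all WT spinal cords, and brain lies above spinal cord in most panels.

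Sox11 and Sox4 are SoxC transcription factors with an HMG-box that binds DNA, and in mice they act together in neuronal differentiation. Both are intronless genes. Their promoters are shown because these genes had the largest tissue differences of the 10 in WT, and because 1 of the pair was called in dKO spinal cord and the other not. The sequences are from RefSeq on build GRCm38.p6, 5′ to 3′ on the gene's own strand, and end at the base before the annotated gene. Sox11 is at chr12:27342719-27342968 on the minus strand, and Sox4 at chr13:28953700-28953949 on the minus strand. Capitals mark the E-box CANNTG, the site of bHLH factors such as Nhlh2, the CCAAT box CCAAT and the GC box GGGCGG, each on either strand.
Sox11: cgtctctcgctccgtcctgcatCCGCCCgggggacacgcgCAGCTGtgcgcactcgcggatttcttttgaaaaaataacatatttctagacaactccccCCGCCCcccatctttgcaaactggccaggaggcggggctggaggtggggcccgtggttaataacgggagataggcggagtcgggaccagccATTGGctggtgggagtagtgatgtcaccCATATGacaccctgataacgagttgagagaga
Sox4: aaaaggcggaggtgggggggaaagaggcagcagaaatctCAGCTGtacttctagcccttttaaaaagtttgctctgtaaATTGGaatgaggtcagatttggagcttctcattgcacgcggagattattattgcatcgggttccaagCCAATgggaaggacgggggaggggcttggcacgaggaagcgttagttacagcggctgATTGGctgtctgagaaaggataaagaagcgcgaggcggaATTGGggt
The window of Sox11 held 2 E-boxes, 1 CCAAT box and 2 GC boxes, and that of Sox4 held 1 E-box, 4 CCAAT boxes and no GC box. Neither window held the TATA box letters TATAAA or the Sox core letters ACAAAG or ACAATG. No marked motifs overlap. Of 32851 promoter windows of the same 250 bases, 66.2% held an E-box, 33.8% a CCAAT box, 32.7% a GC box, 12.4% the TATA box and 25.2% a Sox core. A match is a run of letters and not a measured binding site. The table held promoters for 7 of the 10 genes.

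Sox11 stood at 9.85, 10.12, 10.21 and 10.02 in dKO spinal cords, against 9.24, 9.13, 9.13 and 9.31 in WT spinal cords. Every dKO spinal cord lay above every WT spinal cord, by more than the spread within either group. The change was 0.85 (SE 0.154, n = 4 per group, adjusted p = 0.00244). In brain the values were 11.03, 11.37, 10.56 and 11.02 in dKO, against 10.96, 10.99, 10.33 and 10.87 in WT. The brain groups overlapped, and array 3 was the lowest of both, as it was for the telencephalon genes. Pair by pair, from array 1 to 4, the dKO brain was higher than the WT brain by 0.07, 0.38, 0.24 and 0.15. The brain change was 0.21, with an interval from -0.11 to 0.53 (adjusted p = 1, and 0.518 with the block). The difference between the effects was 0.64 (interval 0.19 to 1.10, unadjusted p = 0.00811, adjusted p = 0.427). WT spinal cord was 3.01-fold lower than WT brain in Sox11, a change of -1.59, while dKO spinal cord was 1.92-fold lower than dKO brain, a change of -0.94.

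Single probe sets of Sox11 all moved the same way in spinal cord. All 12 were higher in dKO, from 0.02 to 1.01, and for 10 of them the groups did not overlap. The gene level is a median over probe sets taken on each array, and its change was larger than that of 10 of the 12 probe sets. With means over probe sets in place of medians the Sox11 change was 0.61 (adjusted p = 0.0165).

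Sox4 was not called in either tissue. Its levels were 10.11, 10.15, 9.67 and 9.95 in dKO spinal cords, against 9.71, 9.55, 9.96 and 9.66 in WT spinal cords. The groups overlapped through dKO spinal cord 3 and WT spinal cord 3, and the change was 0.25 (SE 0.157, adjusted p = 0.414). In brain Sox4 stood at 11.32, 11.26, 10.98 and 11.27 in dKO, against 11.09, 11.25, 10.41 and 11.15 in WT, a change of 0.23 (adjusted p = 1). Pair by pair the difference was 0.22, 0.01, 0.58 and 0.13, so array pair 3 held the largest. Here too array 3 was the lowest of both groups, and without both arrays numbered 3 the brain change was 0.12. Across tissues Sox4 was lower in spinal cord by about the same amount in both genotypes, with a change of -1.24 in dKO and -1.26 in WT. All of its 12 probe sets were lower in spinal cord in both genotypes.

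Nhlh2 encodes a basic helix-loop-helix factor known in mice from young neurons and the hypothalamus. It stood at 7.64, 7.49, 7.56 and 7.50 in dKO spinal cords, against 7.44, 7.44, 7.42 and 7.22 in WT spinal cords. These groups did not overlap, yet the change was small, 0.17 (SE 0.0989, adjusted p = 0.379). In brain it stood at 8.69, 8.48, 8.87 and 8.57 in dKO, against 8.37, 8.48, 8.43 and 8.22 in WT, a change of 0.28 (unadjusted p = 0.0109, adjusted p = 0.597). With no floor on dim probe sets the brain change turned to -0.10 (adjusted p = 1). The tissue call of Nhlh2 rests on part of its probe sets. Its level was lower in spinal cord by 1.11 in dKO and by 1.00 in WT, but of 9 probe sets only 4 were lower in dKO and 5 in WT. The median change of single probe sets was 0.06 in dKO and -0.15 in WT. With means over probe sets the tissue change of Nhlh2 was -0.33 in dKO (adjusted p = 0.00275) and -0.46 in WT (adjusted p = 0.000242). With no floor it was -0.15 in dKO (adjusted p = 0.382), no longer called, and -0.46 in WT (adjusted p = 0.0141). Probe set 5253627, the brightest of Nhlh2 in WT spinal cord, went the other way, at 10.78 in dKO spinal cord against 10.005 in dKO brain.

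Dcx encodes doublecortin, a protein that binds and stabilises microtubules in migrating neurons, and it is X-linked. Its levels were 11.28, 11.41, 11.32 and 11.45 in dKO spinal cords, against 10.87, 10.54, 10.90 and 10.87 in WT spinal cords. The groups were clearly apart, with WT spinal cord 2 lowest. The change was 0.57 (SE 0.0953, adjusted p = 0.00129). It was 0.49 without WT spinal cord 2, and 0.58 with the Y-linked level as a covariate (adjusted p = 0.002). In brain Dcx stood at 11.85, 11.82, 11.85 and 11.90 in dKO, against 11.75, 11.76, 11.70 and 11.96 in WT. Those groups overlapped and the change was 0.07 (interval -0.13 to 0.27, adjusted p = 1). The difference between the effects was 0.51 (unadjusted p = 0.00133, adjusted p = 0.285), the lowest unadjusted p among the 10 genes.

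All 17 Dcx probe sets were higher in dKO spinal cord, 12 of them with no overlap between the groups. Only 2 of the 17 changed by as much as the gene level, and with means over probe sets the change was 0.38 (adjusted p = 0.00656). Probe set 5490774 had the largest change, with 8.20 ± 0.133 in dKO spinal cord and 6.91 ± 1.58 in WT spinal cord (SD, n = 4 each), and was picked out after its values were seen. The spread between its WT arrays was wider than that change, and its WT mean was close to the floor of 6.73. Between tissues Dcx was lower in spinal cord by 0.49 in dKO and by 1.00 in WT. With means over probe sets these changes were -0.16 in dKO (adjusted p = 0.0814), no longer called, and -0.51 in WT.

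Stmn1 encodes stathmin, which destabilises microtubules. It stood at 12.08, 11.97, 12.33 and 12.09 in dKO spinal cords, against 11.87, 11.53, 11.86 and 11.75 in WT spinal cords. No dKO spinal cord was as low as any WT spinal cord, though the gap between the nearest was narrow. The change was 0.37 (SE 0.106, adjusted p = 0.0492), and the call was lost in 13 of 20 other settings, with an adjusted p of up to 0.174. All 13 Stmn1 probe sets were higher in dKO spinal cord. In brain Stmn1 stood at 12.36, 12.48, 12.13 and 12.20 in dKO, against 12.26, 12.25, 12.12 and 12.14 in WT, a change of 0.10 (adjusted p = 1). The pairs differed by 0.10, 0.23, 0.01 and 0.06. Between tissues Stmn1 was not called in dKO, with a change of -0.17 (adjusted p = 0.156), and fell by 0.44 in WT spinal cord (adjusted p = 0.00175). With means over probe sets the dKO change between tissues was -0.43 and called (adjusted p = 0.000101).

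Dpysl3 and Dpysl5 encode collapsin response mediator proteins, which link guidance signals to the growth cone cytoskeleton. Dpysl5 stood at 11.15, 11.25, 11.30 and 11.12 in dKO spinal cords, against 11.17, 10.82, 10.81 and 10.73 in WT spinal cords. WT spinal cord 1 reached into the dKO range and the other 3 lay below it. The change of 0.32 just missed the threshold (SE 0.0996, adjusted p = 0.0635), and passed it without WT spinal cord 1, at 0.42 (adjusted p = 0.0102). Of the 18 Dpysl5 probe sets 17 were higher in dKO spinal cord. One of these, 5097629, passed the floor through dKO spinal cord, so its direction was set by the filter. In brain Dpysl5 averaged 11.75 ± 0.0956 in dKO and 11.59 ± 0.0604 in WT (SD, n = 4 each), a change of 0.16 (adjusted p = 1), with pair differences of 0.20, 0.27, 0.02 and 0.14. Dpysl5 was lower in spinal cord than in brain by 0.54 in dKO and by 0.71 in WT. With means over probe sets it was lower by 0.13 in dKO (adjusted p = 0.126) and by 0.34 in WT. Those means include probe sets, 5097629 among them, that were under the floor in brain and passed it through spinal cord. Their rise in dKO spinal cord was set by the filter, so the smaller dKO change is partly made by it.

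Dpysl3 changed less. It averaged 12.03 ± 0.0663 in dKO spinal cord and 11.88 ± 0.117 in WT spinal cord, a change of 0.16 (adjusted p = 0.337), and 12.39 ± 0.0295 in dKO brain and 12.31 ± 0.0982 in WT brain, a change of 0.08 (SD, n = 4 each, adjusted p = 1). Both pairs of groups overlapped. Between tissues Dpysl3 was called lower in spinal cord in both genotypes, with a change of -0.36 in dKO and -0.43 in WT.

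Igf2bp1, Igf2bp2 and Igf2bp3 encode proteins that bind Igf2 mRNA and other transcripts and set their stability, localisation or translation. None of the 3 was called by genotype in either tissue. Igf2bp1 ranged from 7.01 to 7.14 in dKO spinal cords, against 6.75 to 7.09 in WT spinal cords, a change of 0.16 (adjusted p = 0.578). In brain it ranged from 7.06 to 7.80 in dKO and from 7.27 to 7.74 in WT, with array 3 the lowest of each, a change of 0.05 (adjusted p = 1). The spread of Igf2bp1 in brain was thus far wider than its genotype change. Igf2bp3 ranged from 7.54 to 7.91 in dKO spinal cords, against 7.37 to 7.86 in WT spinal cords, a change of 0.11 (adjusted p = 0.743), and its brain change was -0.02 (adjusted p = 1). Between tissues both were lower in spinal cord. The change was -0.49 in dKO and -0.61 in WT for Igf2bp1, and -0.38 in dKO (adjusted p = 0.0299) and -0.51 in WT for Igf2bp3. With means over probe sets the dKO change of Igf2bp1 was -0.22 (adjusted p = 0.0725), no longer called. Some Igf2bp1 probe sets had means under the floor of 6.73 in spinal cord of both genotypes. One was 4442739, at 6.65 in dKO and 6.67 in WT spinal cord, against 7.31 in dKO and 7.39 in WT brain. Such probe sets passed the floor through brain, so that they were lower in spinal cord was set by the filter. The mean level of Igf2bp1 in WT spinal cord, 6.91, was itself close to the floor. The dKO call of Igf2bp3 was lost in 5 of 20 other settings, with an adjusted p of up to 0.192, among them without dKO spinal cord 1 or 3 and without dKO brain 1 or 2. The tissue groups of Igf2bp3 overlapped in both genotypes.

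Igf2bp2 differed from its relatives. It stood at 7.83, 7.88, 8.03 and 8.08 in dKO spinal cords, against 8.02, 7.95, 7.99 and 7.97 in WT spinal cords, a change of -0.02 (adjusted p = 0.921). In brain it stood at 7.81, 8.04, 7.75 and 7.84 in dKO, against 7.75, 7.75, 7.76 and 7.59 in WT, a change of 0.15 (adjusted p = 1). All WT spinal cords lay above all WT brains, a rise of 0.27 (adjusted p = 0.0151). That call was lost in 6 of 21 other settings, and with means over probe sets the change was 0.16 (adjusted p = 0.0552). Between dKO spinal cord and dKO brain the groups overlapped, with a change of 0.10 (adjusted p = 0.348). That change was called in 2 of 21 other settings, at 0.19 with means over probe sets (adjusted p = 0.0243) and at 0.48 when the floor was raised to the 75th percentile (adjusted p = 0.000751).

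The exon index of a probe set is the difference between its log2 value and its gene's level, taken array by array, so a changed index means that the probe set moved apart from its gene. In dKO spinal cord 3 of the 138 indices were called, 1 higher and 2 lower, against 0.388% of all 193126 indices, 0.235% higher and 0.153% lower. They lay in 2 of the 10 genes, against 4.28% of the 12340 genes tested. In brain none of the 138 was called, against 0.15% of all indices, with 1 at an unadjusted p under 0.05. The difference between tissues was called for none of them, against 0.000518% of all indices, with 9 of the 138 at an unadjusted p under 0.05.

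The 2 called indices of Sox11 were of probe sets 5593056 and 4573203, both lower in dKO spinal cord. As Sox11 is intronless, its probe sets do not stand for separate exons. The index of 5593056 fell by 0.83 (SE 0.134, adjusted p = 0.0106) and that of 4573203 fell by 0.59 (SE 0.119, adjusted p = 0.0423). Only 2 of the 12 Sox11 probe sets changed by as much as the gene level, which makes these falls larger. With means over probe sets the index changes were -0.59 for 5593056 and -0.35 for 4573203. Neither probe set itself was lower in dKO. The level of 5593056 was 10.71, 10.79, 10.61 and 10.52 in dKO spinal cords, against 10.62, 10.47, 10.86 and 10.59 in WT spinal cords, so it did not follow the rise of its gene. The mean of 4573203 was 11.20 in dKO and 10.94 in WT spinal cord, a smaller change than the gene's. Both were among the 4 brightest Sox11 probe sets in WT spinal cord, and the other 2 of these, 4379464 and 5110957, were higher in dKO by 0.71 and 0.88. In brain the indices of 5593056 and 4573203 changed by -0.10 and -0.07.

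In Igf2bp2 the index of probe set 5448395 rose by 0.82 in dKO spinal cord (SE 0.165, adjusted p = 0.0417). Its level was 7.14, 7.09, 7.09 and 7.60 in dKO spinal cords, against 6.85, 6.17, 6.44 and 6.27 in WT spinal cords. The groups did not overlap, but the WT mean of 6.43 was under the floor of 6.73, so the size of this change is poorly fixed. The index of Dpysl5 probe set 5097629 was not called in spinal cord (adjusted p = 0.117). This probe set was at 7.96, 7.62, 8.25 and 7.83 in dKO spinal cords, against 6.02, 6.53, 6.16 and 7.01 in WT spinal cords, and its brain means were 6.64 in dKO and 6.40 in WT. It passed the floor through dKO spinal cord, since the means of the other 3 groups were under it, so that it was higher there was set by the filter and no size is given for its change. Positions of probe sets in their transcripts were not used here, so none is given as an exon.

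**Figure D3:**
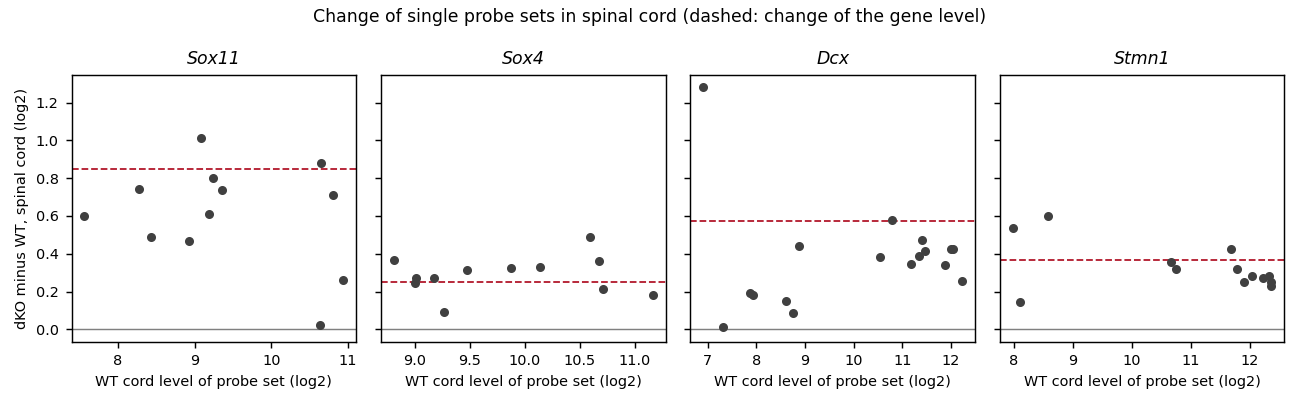
Change of each probe set of Sox11, Sox4, Dcx and Stmn1 in spinal cord, dKO minus WT on the log2 scale, against its mean level in WT spinal cord. Dashed lines mark the change of the gene level. All points lie above 0, and 2 bright Sox11 probe sets lie far below the dashed line.

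Lists of related genes were counted in the same way. All lists, here and below, were also chosen with earlier results of these data known, so their counts are no independent comparison. In spinal cord 1.08% of all genes tested were called higher and 4.55% lower, with a median change of -0.03. In brain 0.268% were called in either direction. The family relatives of the 10 genes (Sox12, Nhlh1, Stmn2, Stmn3, Stmn4, Dclk1, Dclk2, Crmp1, Dpysl2 and Dpysl4) had none of 10 called in spinal cord and none in brain, with a median change of 0.01 in spinal cord. Stmn3 came nearest, with a change of -0.32 in spinal cord (adjusted p = 0.0521). Of 16 other genes of young neurons 3 rose in dKO spinal cord and none fell, with a list median of 0.07. These were St8sia2, by 0.61 (adjusted p = 0.000289), and St8sia4, by 0.47 (adjusted p = 0.00496), the enzymes that add polysialic acid to the adhesion molecule NCAM, and the neuronal intermediate filament Ina, by 0.36 (adjusted p = 0.0351). In brain none of the 16 was called.

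Mature neuron genes went the other way in spinal cord. Of 12 tested, 6 fell and none rose, with a list median of -0.40 in dKO against WT. Most calls over all genes in spinal cord were falls too, with 4.55% of genes called lower and 1.08% higher. The dendritic microtubule protein gene Mtap2 (Map2) fell by 0.89 (adjusted p = 0.000126) and the potassium-chloride transporter gene Slc12a5 by 0.66 (adjusted p = 0.00267), and the others were Grin1, Kcnc1, Syp and Nefh. In brain Mtap2 was the 1 gene of the 12 called, and fell by 1.00 (adjusted p = 0.000116). Without the 4 spinal cords of high muscle level, 1 of the 16 young neuron genes and 1 of the 12 mature neuron genes were called. In that setting 100 of all 14570 genes tested were called.

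Markers of other cells were counted beside these, and are set beside the 4.55% of all genes called lower in spinal cord and 1.08% higher. In dKO spinal cord 6 of 9 astrocyte genes fell, with a list median of -0.55, as did 3 of 6 oligodendrocyte lineage genes, with a list median of -0.38, and without the 4 spinal cords of high muscle level 0 and 1 of these were called. The summed astrocyte level, as a mean of log2 levels, ranged from 9.63 to 9.93 in dKO spinal cords, against 10.001 to 10.45 in WT spinal cords. That of the oligodendrocyte list ranged from 8.16 to 8.30 in dKO spinal cords, against 8.47 to 8.80 in WT spinal cords. No gene of either list was below the floor in either group. Of 9 progenitor genes Hes5 rose, by 0.54 (adjusted p = 0.0238), and none of 10 cell cycle genes was called. The skeletal muscle, Schwann cell and dorsal root ganglion, meninges and telencephalon lists had no gene called by genotype in either tissue. The part that any of these lists has in the changes of Sox11, Dcx and Stmn1 was not tested.

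**Figure D4:**
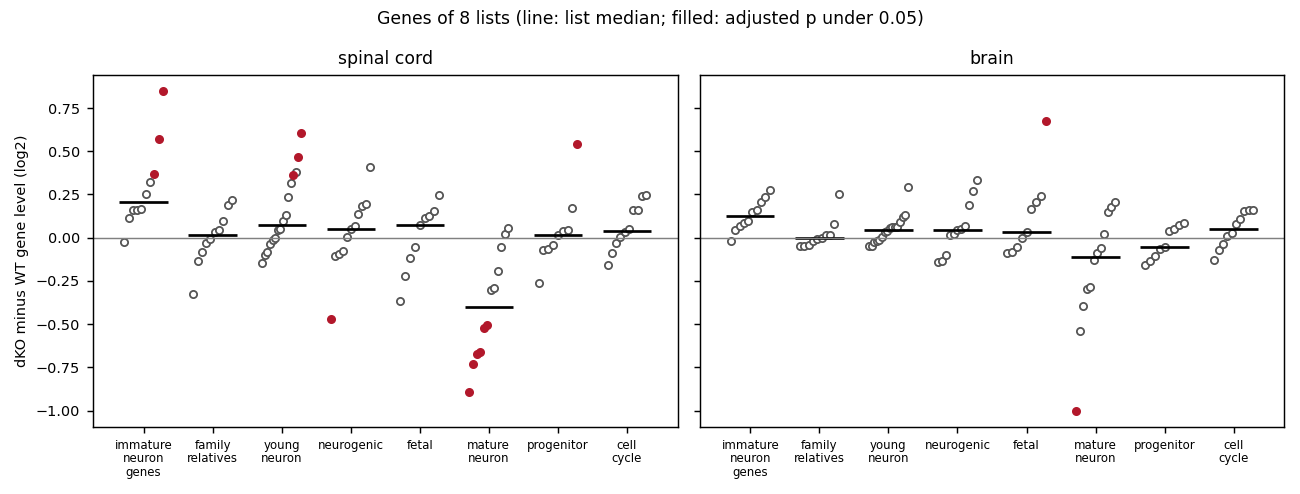
Change of every tested gene, dKO minus WT gene level on the log2 scale, for the immature neuron genes and 7 other lists, in spinal cord and in brain. Lines are list medians, and filled points had an adjusted p under 0.05 over all genes. In spinal cord the filled points are above 0 for the immature neuron and young neuron genes and below 0 for the mature neuron genes. There the neurogenic list has 1 filled point below 0, Dll3, and the progenitor list 1 above 0, Hes5.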

How the data were processed

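RNA of 4 dKO spinal cords, 4 WT spinal cords, 4 dKO brains and 4 WT brains was measured on 1 exon array each. Each deposited value is a linear intensity of 1 probe set. The submitters' processing notes name Affymetrix Power Tools, PLIER and the build mm8 for what the authors did, without versions or settings, and detection calls were not used here. Intensities of 16 arrays were taken here to log2 after adding 16, so changes of dim probe sets are understated. The floor, 6.73, was the median over probe sets of their mean log2 value, not taken from the authors. A gene level needed at least 3 probe sets above it and an exon index at least 5. Of 625534 probe sets, 303629 have 1 gene symbol, 5892 several and 316013 none.

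One model with a mean per group was fitted to the 16 arrays by limma 3.58.1 (lmFit, eBayes) under R 4.3.3, and data.table, version 1.17.8, held the tables. Calls rest on two-sided moderated tests, Benjamini-Hochberg adjustment over all features and a threshold of 0.05. There were 5 gene comparisons and 3 exon comparisons, and the code was tested on simulated data. The number of arrays limits the precision, and median intensity per array ran from 72.3 to 116. Array number 1, 2, 3 or 4 was checked as a pairing of dKO and WT. Same-numbered brains deviated together (r from 0.212 to 0.407), and same-numbered spinal cords did not (r from -0.12 to -0.00296). Arrays of different number were not compared, so the check does not show that same-numbered arrays are pairs. Alternatives were other pseudocounts, floors, summaries, normalizations, arrays and variance models, the array number as a block and the Y-linked level as a covariate.

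The 10 genes and all lists were chosen with earlier results of these data known. Named genes are the 10 genes, called probe sets or those of lowest p per gene, and up to 4 genes per list and comparison by adjusted p, apart from the probe sets named for their gene's range. The rule's further step of naming the genes most correlated with a called gene was left out, because the arrays form 2 tissue clusters. List genes are named in the text as the annotation gives them. The lists tested 10 family relatives, 16 young neuron, 11 neurogenic, 9 fetal, 12 mature neuron, 9 progenitor, 10 cell cycle, 9 astrocyte, 6 oligodendrocyte, 13 skeletal muscle, 9 Schwann cell and dorsal root ganglion, 8 meninges and 7 telencephalon genes.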

Additional observations from a re-analysis of the deposited data

Results flagged for a closer look

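Within a group of 4 arrays, 6 of 52 group values looked at had 1 array farther from the other 3 than their spread allows, and chance alone gives about 1 in 20 such groups. In spinal cord, WT array 2 was low in Dcx, at 10.54 against 10.87 for the next lowest, and WT array 4 was low in Nhlh2, at 7.22 against 7.42. Both are in the group that dKO was set against, and without WT array 2 the Dcx change in spinal cord was 0.49. In brain, dKO array 3 was low in Sox4, at 10.98 against 11.26, and WT array 3 was low in Dpysl3, at 12.16 against 12.34. These are the 2 arrays that were also low in telencephalon genes. The other 2 were dKO brain 4 in Dpysl3, at 12.35 against 12.41, and WT brain 4 in Igf2bp2, at 7.59 against 7.75.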

How the results depend on the processing

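No called change of the 10 genes turned round in any setting tried, and over all gene and probe set results 1205 kept their side of the threshold, 53 lost it and 9 gained it. In spinal cord 3 genes were called, 2 to 4 when 1 array was left out, and 0 without the 4 arrays of high muscle level, where 2 arrays per group remained. Sox11 and Dcx lost their calls in that setting only, of 20. Stmn1 also lost its call with a pseudocount of 1, with no floor, with only the 8 spinal cord arrays, with the replicate block (adjusted p = 0.0815), with the Y-linked covariate and without any 1 of 7 of the 8 spinal cord arrays, the exception being WT spinal cord 1. Dpysl5 in spinal cord gained a call in 6 settings. Its lowest adjusted p, 0.00798, was with means over probe sets, which take in 5097629, a probe set whose rise was set by the filter. Without WT spinal cord 1 it was 0.0102.

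For exon indices in spinal cord, 3 were called, 1 with no floor, 0 with the replicate block, 0 without the 4 arrays of high muscle level and 1 to 3 when 1 array was left out. Probe set 5593056 of Sox11 lost its call in the 2 settings that gave 0, while 4573203 of Sox11 lost it in 10 of 17 and 5448395 of Igf2bp2 in 11 of 16. The replicate block changed no call of the 10 genes in brain, where same-numbered arrays deviated together. The labels do not say that these arrays are pairs. Between tissues 6 to 8 of the 10 genes were called in dKO, against 8, and 8 to 10 in WT, against 10, over 21 other settings, with 6 in dKO where no floor was set. Over all genes, 100 to 1620 were called in spinal cord, against 820, 24 to 67 in brain, against 39, and 0 to 34 for the difference, against 0. The cause of these shifts was not tested.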

Other observations

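The 11 neurogenic genes tested had 1 gene called in spinal cord and none in brain. Of all genes tested 5.63% were called in spinal cord and 0.268% in brain. The Notch ligand gene Dll3 fell by 0.47 in dKO spinal cord (adjusted p = 0.0041), and the list median was 0.05. In brain the nearest were Mfng, which modifies Notch, with a change of 0.33 (adjusted p = 0.731), and Btg2, an antiproliferative gene, with a change of 0.27 (adjusted p = 0.968).

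Of 9 genes of fetal RNA programmes and imprinted growth, none was called in spinal cord. In brain the imprinted gene Mest rose by 0.67 in dKO (adjusted p = 0.0029), with a mean of 11.99 in dKO brain against 11.31 in WT brain.

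Probe sets of Igf2bp1 and Igf2bp2 outside the called ones also had separate groups in spinal cord. Of the 138 indices, 11 had dKO and WT groups that did not overlap in spinal cord, and 2 in brain. The share over all indices was not counted, so no result is drawn from the separation. The index of Igf2bp1 probe set 4963532 changed by 0.38 (adjusted p = 0.175), with levels of 7.39, 7.39, 7.40 and 7.42 in dKO spinal cords, against 6.56, 6.94, 6.66 and 7.26 in WT spinal cords. The index of Igf2bp2 probe set 4925425 changed by -0.43 in spinal cord (adjusted p = 0.228) and by -0.48 in brain (adjusted p = 0.663), and in both tissues all dKO indices lay below all WT indices.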
